A study of Mus musculus with 6 samples.

Results

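Heparan sulphate is made by a short series of enzymes, and 10 mouse genes for them were followed here: Ext1, Ext2 and Extl3, which build the chain, Ndst1, Ndst2, Glce, Hs2st1 and Hs6st1, which modify it, and Sulf2 and Hpse, which trim it. Their probes were found through the gene symbols of the array annotation, with no threshold on values. Of the 10 genes, 7 had a named probe, with 11 probes among the 25697 of the array. Ndst1, Ndst2 and Sulf2 were not analysed here. Of the 7, 6 genes were measured above background, and Glce was not detected on any array.

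The arrays came from bone marrow stem and progenitor cells of C57Bl/6 mice with the L-S+K+ phenotype, the lineage-negative gate that holds stem cells and early progenitors. The genes of the sort markers were not analysed here. All cultures ran for 24 h with fetal calf serum, murine SCF (stem cell factor) and GM-CSF (a colony-stimulating factor for granulocytes and macrophages), so the control cells too were under growth factors. The 3 control cultures received nothing else, and the 3 treated cultures also received 1 mM valproic acid (VPA), a short branched fatty acid that inhibits histone deacetylases. Each culture gave 1 single-colour Illumina array, and the question was which transcripts differ after the first day with the inhibitor. In such bulk samples, fewer cells of a type and less RNA per cell cannot be told apart.

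Heparan sulphate is a long sugar chain of alternating glucosamine and uronic acid carried by proteoglycans of the cell surface and the matrix. Enzymes of the Golgi start the chain on a linker sugar, extend it, and then replace acetyl groups by sulphate, epimerise the uronic acid and add further sulphates at defined positions. The resulting pattern binds growth factors, chemokines and cytokines, and in bone marrow the chains hold such factors near stem cells and take part in the lodging of progenitors.

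VPA replicate 1 stood apart from the other 5 arrays. Its median raw signal over detected probes was 226, against 456 to 647 on the others, and 2.37 times that of undetected probes, against 3.93 to 4.82 times. Its normalized values correlated across probes with those of the other VPA arrays at 0.947 and 0.957, while each remaining pair within a group reached at least 0.989. Of the progenitor markers on the array, 6 of 9 passed the detection filter, Cd34, Flt3, Meis1, Hoxa9, Gata2 and Cd48, and Mecom, Slamf1 and Hlf did not. Their summed normalized levels overlapped (9415 to 11218 in control and 9265 to 12227 with VPA). Lymphoid markers did not overlap: 2 of the 7 on the array were measured, Dntt and Il7r, and both fell with VPA. Their sums were 304 to 430 in control and 72 to 89 with VPA. Over all measured genes 0.314% were lower at an adjusted p under 0.05 by limma, and 3.41% higher. Of the macrophage markers on the array 3 of 5 were measured, with Mrc1 lower and sums of 1171 to 1605 and 643 to 1630. Of the erythroid markers on the array 4 of 5 were measured, with Epor higher and sums of 205 to 1741 and 261 to 1437. The part of cell makeup in the values below was not tested. Results below are given with and without VPA replicate 1.

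Signal above background was found for 7 of the 11 probes. Raw signals were set against the median of the undetected probes on the same array. The first Extl3 probe lay 19.9 to 24.7 times above it and a second Extl3 probe 6.77 to 11.1 times. The Ext2 probe lay 6.51 to 19.9 times above, the Ext1 probe 3.24 to 5.07 times, the first Hs6st1 probe 2.04 to 6.43 times and the Hs2st1 probe 2.60 to 3.28 times. These ratios say how far each probe stood above background and do not rank the transcripts, since probes differ in brightness. Hpse was the dimmest measured gene, at 1.22 to 1.53 times, and was detected on 2 of 3 control arrays and on all 3 VPA arrays. The single Glce probe, 2 further probes of Extl3 and 1 of Hs6st1 were detected on no array. Their raw signals ran from 85.8 to 154, with detection p-values of 0.170 to 0.999. No fold can be given for Glce, the epimerase that turns glucuronic into iduronic acid, since both groups lay at background.

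**Figure D1:**
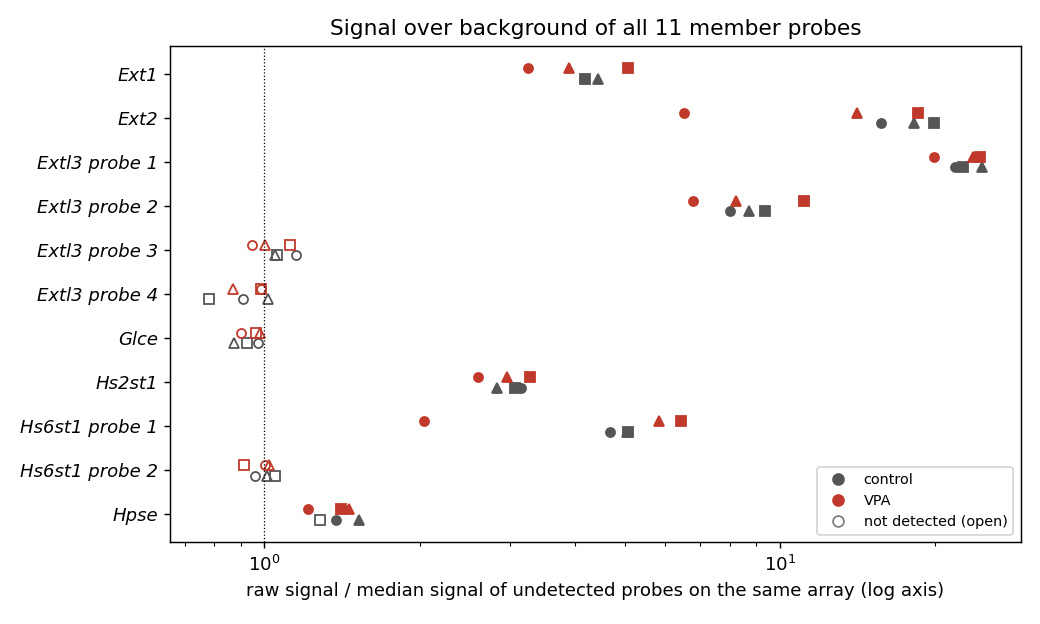
Raw signal of the 11 probes, divided by the median signal of undetected probes on the same array (log axis), for control (grey) and VPA (red) arrays, with circles, squares and triangles for replicates 1, 2 and 3 and open symbols for arrays without detection. Of the probes, 7 lie above 1 and 4, including that of Glce, lie around 1 on every array, while Hpse sits just above it.

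With VPA, 0 of the 6 measured enzymes passed the threshold of adjusted p 0.05 by limma in either direction. Counted by the kept probe with the highest mean, 0 passed at an unadjusted p under 0.05 either. Over all 7967 measured genes, 3.73% passed (3.41% higher and 0.314% lower) and 17.1% were under 0.05 unadjusted. Of the 6 enzymes, 5 had a log2 change above 0, and the median change was 0.35, against -0.02 over all genes, of which 48.0% lay above 0. The 3 VPA cultures all lay above the 3 control cultures in Ext1, Extl3 and Hs2st1, an order that 16.7% of all genes showed. The 95% intervals reached upward to between 1.29-fold (Ext2) and 2.01-fold (Hs2st1). Downward they reached falls of between 1.02-fold (Extl3) and 1.56-fold (Ext2). Increases or falls up to these sizes could not be told from none with 3 arrays per group.

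Chain polymerisation came first. Ext1 and Ext2 form the complex that lengthens the chain by adding glucuronic acid and N-acetylglucosamine in turn. Ext1 had normalized log2 intensities of 8.28, 8.45 and 8.51 in control replicates 1 to 3 and of 9.15, 8.77 and 8.55 in VPA replicates 1 to 3. The groups did not overlap, by a narrow margin between control replicate 3 and VPA replicate 3. The log2 change was 0.41 ± 0.19 (SE, n = 3 per group), or 1.33-fold, with an adjusted p of 0.336 by limma and a 95% interval of -0.04 to 0.85. Without VPA replicate 1, the highest array, it was 0.24 ± 0.13 (adjusted p = 0.314).

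Ext2 gave values of 10.50, 10.98 and 10.78 in the controls and of 10.25, 10.86 and 10.73 with VPA. Here VPA replicate 1 was the lowest of the 6 arrays, and the other VPA values lay within the range of the controls. The log2 change was -0.14 ± 0.21 (adjusted p = 0.760), with an interval of -0.64 to 0.36, and its sign turned to 0.04 ± 0.16 without VPA replicate 1 (adjusted p = 0.894). Leaving out control replicate 1 gave -0.26, leaving out control replicate 2 gave -0.02, and leaving out VPA replicate 2 gave -0.26. The difference between Ext1 and Ext2 on the same array, set against its control mean, was 1.24 on the log2 scale in VPA replicate 1 and 0.25 and 0.15 in VPA replicates 2 and 3, while the controls lay at 0.12, -0.19 and 0.07. VPA replicate 1 thus carried most of the divergence between the partners, and the other VPA arrays lay just outside the control range.

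Extl3, which adds the first N-acetylglucosamine that commits the linker to heparan sulphate, had values of 11.02, 11.18 and 11.24 in the controls and of 11.84, 11.29 and 11.52 with VPA. All VPA arrays were above all controls, replicate 2 by the least. The log2 change was 0.40 ± 0.18, or 1.32-fold (adjusted p = 0.320, interval -0.03 to 0.83). The second detected probe behaved alike, with 9.42, 9.81 and 9.64 in the controls and 10.32, 10.07 and 9.87 with VPA. Its groups did not overlap either, as in 14.8% of all 11115 kept probes with VPA higher, and its log2 change was 0.46 ± 0.18. By limma its unadjusted p was 0.0374 and its adjusted p 0.254, while 3.35% of those probes passed the adjusted threshold. Without VPA replicate 1 the probes gave 0.26 ± 0.13 and 0.35 ± 0.15 (adjusted p = 0.286 and 0.214). All 4 Extl3 probes, the 2 undetected ones included, are annotated to 1 transcript, so they are not independent measurements.

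O-sulphation follows epimerisation. Hs2st1 encodes the enzyme that sulphates the uronic acid at its 2-O position. Its values were 7.77, 7.86 and 7.68 in the controls and 8.75, 7.92 and 7.99 with VPA. All VPA arrays exceeded the controls, but replicate 1 by far the most, and replicate 2 lay only just above control replicate 2. The log2 change of 0.45 ± 0.24 (1.37-fold, adjusted p = 0.384, interval -0.10 to 1.00) was 0.19 ± 0.12 without VPA replicate 1 (adjusted p = 0.366).

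Hs6st1 encodes a 6-O-sulphotransferase, whose marks on glucosamine are needed for the binding of several growth factors and are the substrate of the extracellular sulphatases. Its values were 8.50, 8.81 and 8.74 in the controls and 8.21, 9.18 and 9.28 with VPA. VPA replicate 1 was the lowest of the 6 arrays, whereas VPA replicates 2 and 3 were above every control. The log2 change over all arrays was 0.20 ± 0.29 (1.15-fold, adjusted p = 0.739, interval -0.47 to 0.88). Without VPA replicate 1 it was 0.54 ± 0.14, or 1.46-fold, and narrowly missed the threshold (adjusted p = 0.0580, interval 0.22 to 0.86). Leaving out VPA replicate 2 or 3 instead gave 0.06 and 0.01, and without control replicate 1 it was 0.11. The SD between VPA cultures was 0.59, against 0.16 between controls.

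Trimming of the finished chain was represented by Hpse alone. It encodes heparanase, which cleaves the chains and is known from platelets, neutrophils and mast cells. Its values were 5.63, 5.49 and 6.12 in the controls and 6.23, 5.80 and 6.08 with VPA, close to the level of undetected probes. The groups overlapped, with control replicate 3 above 2 of the VPA arrays. The log2 change was 0.29 ± 0.21 (1.22-fold, adjusted p = 0.520, interval -0.21 to 0.79), 0.19 ± 0.21 without VPA replicate 1 (adjusted p = 0.601). It was 0.48 when control replicate 3 was left out and 0.16 when control replicate 2 was. Markers of cell types known to hold heparanase had summed normalized levels that overlapped between the groups. The platelet and megakaryocyte list (5 of 7 genes measured) ran from 2050 to 2184 in control and from 1938 to 2115 with VPA, with 0 genes past the threshold. All 10 neutrophil markers were measured, with sums of 54863 to 83806 and 44784 to 77033 and 0 past the threshold. Of 8 mast cell markers 3 were measured (347 to 496 and 277 to 920), of which Cpa3 fell, with Cma1, Mcpt4, Tpsb2, Tpsab1 and Ms4a2 not passing the detection filter. Their part in the Hpse values was not tested.

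**Figure D2:**
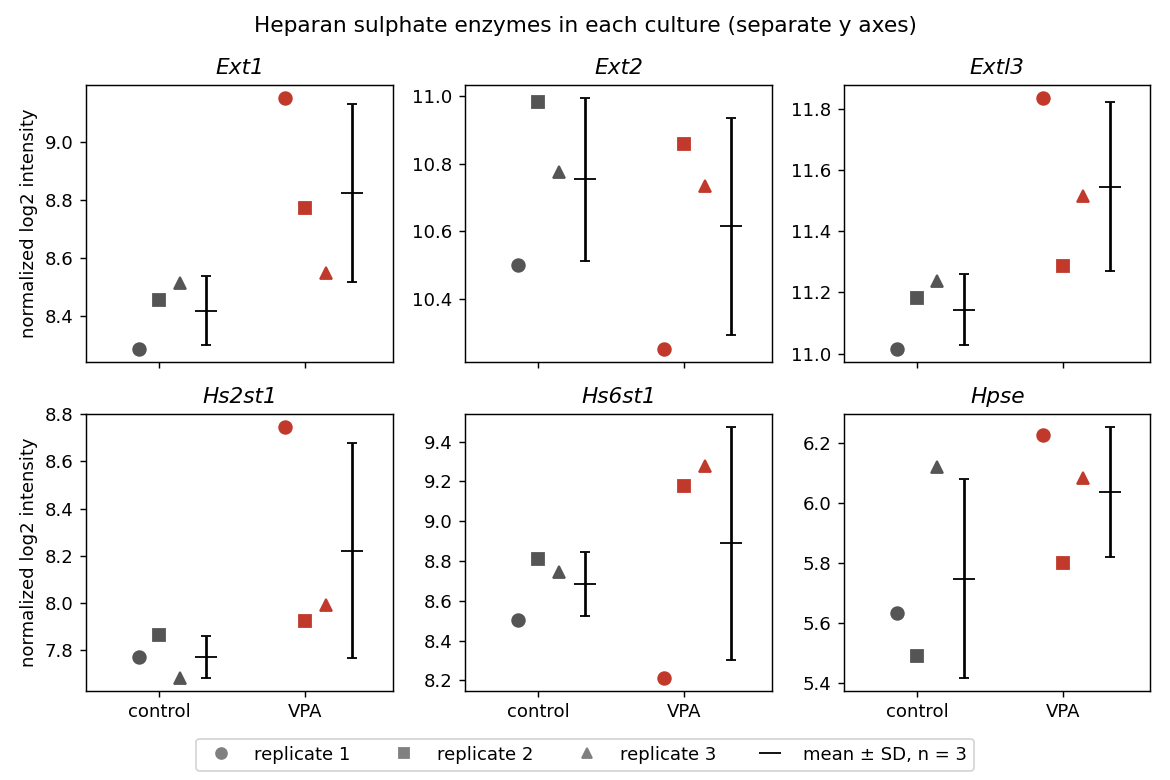
Normalized log2 intensity of the 6 measured enzymes in each culture, with a separate vertical axis per gene, control in grey, VPA in red, replicates 1, 2 and 3 as circles, squares and triangles, and the mean ± SD (n = 3) beside each group. VPA replicate 1 is the highest VPA array in 4 genes and the lowest in Ext2 and Hs6st1, and the groups are separate in Ext1, Extl3 and Hs2st1.

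Across the enzymes, VPA replicate 1 was the VPA array farthest from the middle value in 5 of 6 genes, as in 68.2% of all measured genes. It was the highest VPA array in 4 and the lowest in 2. The mean of VPA replicates 2 and 3 lay above the control mean in all 6, by 0.04 (Ext2) to 0.54 (Hs6st1) on the log2 scale. The share of all genes with this sign was not counted. Without VPA replicate 1 the median change was 0.22 over the enzymes and -0.0047 over all genes, with no test. The VPA cultures varied more than the controls in 5 of 6 enzymes, Hpse being the exception, and in 78.7% of all genes.

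**Figure D3:**
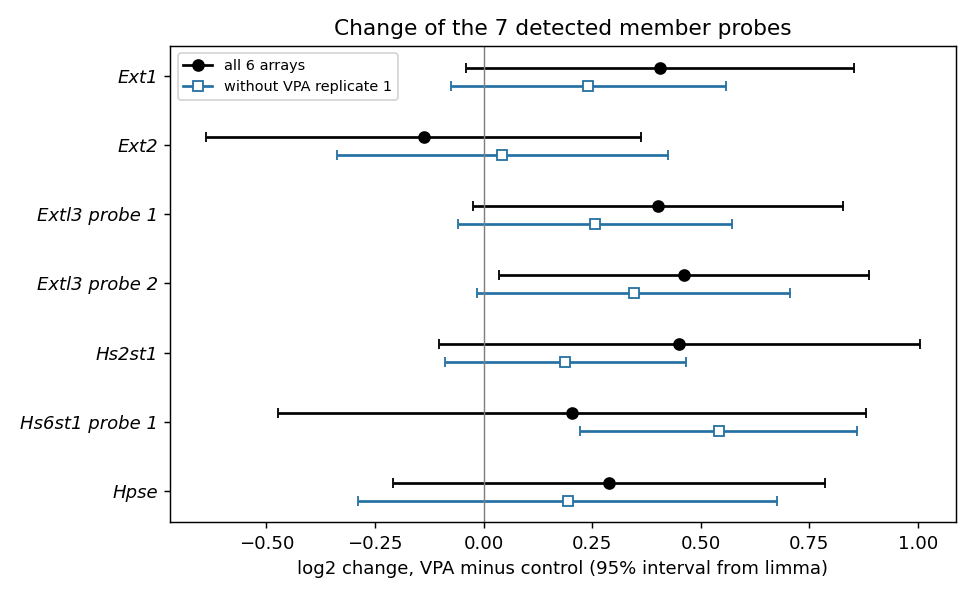
Log2 change (VPA minus control) of the 7 detected probes with 95% intervals from limma, over all 6 arrays (black circles) and without VPA replicate 1 (open blue squares). All intervals over 6 arrays span 0 except that of the second Extl3 probe, whose adjusted p was 0.254, and without VPA replicate 1 Hs6st1 alone lies clear of 0 (adjusted p = 0.0580).

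Promoter sequence was available from RefSeq (GRCm38.p6) for 7 of the 10 genes, Ext2, Ndst2, Glce, Hs2st1, Hs6st1, Sulf2 and Hpse. The 250 bases before the transcription start were searched for the GC box, GGGCGG on either strand, a sequence bound by Sp1-type factors that is frequent in promoters of broadly expressed genes. It occurs in 32.7% of the 32851 promoter windows of that table. The windows of Hs6st1, the enzyme nearest to the threshold without VPA replicate 1, of Hs2st1, whose groups did not overlap, and of Ext2, which had the smallest change, are given here with GC boxes in capitals.
Hs6st1, chr1:36068150-36068399, plus strand: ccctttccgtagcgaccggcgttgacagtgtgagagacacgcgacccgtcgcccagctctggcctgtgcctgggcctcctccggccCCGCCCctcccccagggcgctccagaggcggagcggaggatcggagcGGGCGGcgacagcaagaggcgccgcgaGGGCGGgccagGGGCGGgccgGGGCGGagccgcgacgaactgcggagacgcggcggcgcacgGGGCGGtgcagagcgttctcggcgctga
Hs2st1, chr3:144570217-144570466, minus strand: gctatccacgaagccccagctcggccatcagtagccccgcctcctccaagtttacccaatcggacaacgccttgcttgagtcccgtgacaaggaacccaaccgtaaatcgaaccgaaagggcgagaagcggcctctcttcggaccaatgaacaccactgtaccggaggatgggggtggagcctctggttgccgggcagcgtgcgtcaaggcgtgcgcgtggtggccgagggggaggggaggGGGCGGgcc
Ext2, chr2:93822569-93822818, minus strand: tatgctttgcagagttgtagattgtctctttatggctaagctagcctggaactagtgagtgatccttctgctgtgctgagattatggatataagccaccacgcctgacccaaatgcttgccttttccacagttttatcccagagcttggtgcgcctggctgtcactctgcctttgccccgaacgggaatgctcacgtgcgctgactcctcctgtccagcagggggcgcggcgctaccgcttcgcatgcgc

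The Hs6st1 window holds 6 GC boxes and 37 CpG dinucleotides, a CpG count reached by 2.20% of windows. Hs2st1 has 1 GC box and 21 CpG, and Ext2 has none of the former, 12 CpG and a CACGTG hexamer, which 6.02% of windows contain. Glce, not detected on the arrays, has 3 GC boxes and 24 CpG in its window, and Hpse 1 and 16. The median window has 6 CpG. These are counts of letters in a fixed window and not measured binding.

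Other genes of the pathway were taken from lists by step. In the 5 lists of enzymes and suppliers 28 of the 51 genes named on the array were measured, and 0 passed the threshold by limma. At an unadjusted p under 0.05 there were 4 higher and 2 lower. Over all measured genes 3.73% passed and 17.1% were under 0.05 unadjusted, so these counts do not set the lists apart. The median log2 change of the 28 genes was 0.06. Of the 7 genes that make the linker sugar, all were measured, with a median of 0.13. Among them Pxylp1, a phosphatase of the linker xylose, had a log2 change of 0.46 ± 0.23 (adjusted p = 0.358) and Xylt2, which attaches that xylose to the core protein, one of 0.28 ± 0.16 (adjusted p = 0.414). Pxylp1 was at 0.21 without VPA replicate 1.

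Only 3 of 12 further chain enzymes passed the detection filter, Extl2, Hs3st1 and Hs6st3, while Ndst3, Ndst4, Hs6st2, Sulf1, Hpse2 and the other 4 did not. Extl2, which can end a chain at the linker, had a log2 change of 0.52 ± 0.20 (adjusted p = 0.248) and Hs3st1, the 3-O-sulphotransferase that completes the antithrombin site, one of 0.40 ± 0.32 (adjusted p = 0.557). Without VPA replicate 1 these were 0.32 and 0.0071. On that array Hs3st1 stood at 8.13, against 7.04 and 6.88 in the other VPA cultures and 6.79 to 7.12 in the controls. Hs6st3 went the other way, with a log2 change of -0.29 ± 0.16 (adjusted p = 0.417 by limma) and of -0.25 without VPA replicate 1. Its groups did not overlap, with VPA lower as in 11.2% of all genes. Hs6st3 was named after its values were seen.

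Sugar and sulphate suppliers (7 of 11 measured) had a median of -0.13. Ugp2, which makes UDP-glucose, the source of UDP-glucuronic acid, had a log2 change of 0.76 ± 0.29 (adjusted p = 0.235; 0.44 without VPA replicate 1). Papss1, which makes the sulphate donor, had one of 0.21 ± 0.26 (adjusted p = 0.696) with its brighter probe and of 0.27 with another, and the former was -0.075 without that array. Of the lysosomal enzymes that take the chain apart 5 of 7 were measured. Sgsh, the sulphamidase, had log2 intensities of 6.69, 6.59 and 7.04 in the controls and of 4.75, 5.76 and 6.10 with VPA, where it was detected on 2 of 3 arrays. The groups did not overlap, with VPA lower as in 11.2% of all genes. Its log2 change was -1.24 ± 0.34 (adjusted p = 0.119). Without VPA replicate 1, the lowest array, it fell by 0.85 ± 0.18 and passed (adjusted p = 0.0336 by limma). In that fit 127 genes of all were lower, against 25 over all 6 arrays. With VPA the Sgsh values reached down to background, so the size of its fall is uncertain. For Ids, the iduronate sulphatase, the change was 0.36 ± 0.20 on the log2 scale (adjusted p = 0.402) and 0.17 when control replicate 3 was left out. In the chondroitin branch, which competes for the same linker, 6 of 14 genes were measured, 3 of them with a log2 change above 0, and the median was 0.11. The sulphotransferases Chst15 and Chst14 had log2 changes of 0.60 ± 0.19 and 0.59 ± 0.19 (adjusted p = 0.166 and 0.164), Chst14 with detection on 1 of 3 control arrays. In the other direction Chst11, a chondroitin 4-O-sulphotransferase, stood at -0.44 ± 0.17 (adjusted p = 0.241). Chsy1, a chondroitin synthase, stood at -0.39 ± 0.24 (adjusted p = 0.445), and both were named after their values were seen. The groups did not overlap in Chst15 and Chst14, with VPA higher as in 16.7% of all genes. Nor did they in Chst11, with VPA lower as in 11.2%. Chst14 passed the detection filter mainly through the group where it was high. Its separation is therefore no support of its own, and the size of its change is uncertain.

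The proteins that carry the chains differed from their makers in the count of calls. This contrast has no test of its own, and the list was written when results of these data were known. Over all measured genes 3.41% were called higher and 0.314% lower, so 0 calls among the enzymes did not set them apart from other genes. Of 14 core protein genes named on the array 8 were measured, while Sdc1, Sdc4, Gpc4, Gpc5, Gpc6 and Hspg2 did not pass the detection filter. Of the 8 measured core protein genes, 5 rose with VPA, 4 of them detected on all 6 arrays. These 4 were the matrix proteoglycan agrin (Agrn, 4.57-fold, log2 change 2.19 ± 0.17, adjusted p = 0.00127), the glypican Gpc1 (4.10-fold, 2.04 ± 0.31, 0.0162) and the syndecans Sdc3 (2.82-fold, 1.50 ± 0.22, 0.0145) and Sdc2 (2.15-fold, 1.10 ± 0.18, 0.0200). The fifth, the glypican Gpc3, was detected on 1 of 3 control arrays and on all 3 VPA arrays, so it passed the detection filter mainly through the group where it was high. Its log2 intensities were 5.38, 5.98 and 5.07 in the controls, near background, and 9.69, 9.28 and 9.19 with VPA. The groups lay far apart (adjusted p = 0.000996), but the size of the difference is uncertain, at 3.91 on the log2 scale here and 2.10 in the deposited log2 values. Serglycin (Srgn), the core protein of secretory granules and not of the cell surface, had a log2 change of -1.04 ± 0.55 (adjusted p = 0.384; -0.33 without VPA replicate 1), and its second probe one of -0.65. Gpc2 and Tgfbr3 were not called, with log2 changes of 0.23 ± 0.50 and 0.29 ± 0.17 (adjusted p = 0.829 and 0.424 by limma). Sdc2, Srgn, Gpc2 and Tgfbr3 were named after their values were seen. The calls of Gpc3 and Agrn held without each array in turn. Those of Sdc2, Sdc3 and Gpc1 were lost without control replicate 1 (adjusted p = 0.115, 0.0851 and 0.0982) and likewise when control replicate 2 was left out (0.0685, 0.0762 and 0.0824). Without control replicate 3 Sdc2 and Sdc3 were lost (0.103 and 0.0513), and without VPA replicate 2 Sdc2 and Gpc1 (0.0601 and 0.0592). Sdc2 also missed the threshold with median scaling (0.0855) and in the deposited log2 values (0.0627). In the latter its log2 change was 0.46, that of Sdc3 0.63 and that of Gpc1 1.85. The control log2 intensities of Sdc2 (6.14, 6.35 and 5.92) and Sdc3 (5.64, 6.05 and 6.24) lay near those of Hpse, close to background. The size of their changes is therefore uncertain too.

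**Figure D4:**
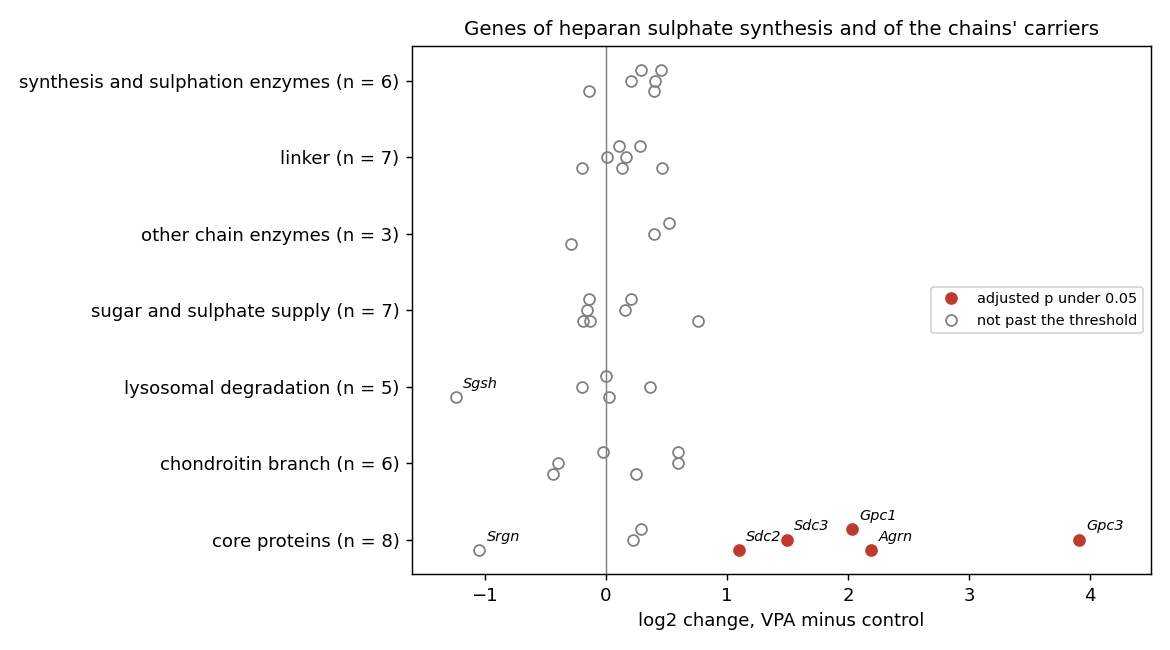
Log2 change (VPA minus control) of the measured enzymes of heparan sulphate synthesis and sulphation and of 6 further lists, 1 point per gene, filled red where the adjusted p by limma was under 0.05. All 5 filled points are core proteins, and no list of enzymes or suppliers has a filled point. Of the 5, 4 lie between 1.10 (Sdc2) and 2.19 (Agrn). The farthest, Gpc3, is of uncertain size because it was detected on 1 of 3 control arrays. Sdc2 and Sdc3 were dim in the controls, so the size of their changes is uncertain too.

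Extl3 had the smallest p of the enzymes over all 6 arrays, though it was not called (adjusted p = 0.320 by limma). The genes with the most similar course over the 6 arrays were taken for it. Of 7840 genes compared, Nucb1, a calcium-binding protein of the Golgi, had the highest Pearson correlation (r = 0.995), followed by Rab11fip5 (0.988), which binds Rab11 on recycling endosomes, and the surface protein Cd276 (0.986). Their log2 changes were 0.23 ± 0.15, 0.84 ± 0.29 and 0.69 ± 0.30 (adjusted p = 0.480, 0.200 and 0.301). These r describe 6 arrays of which VPA replicate 1 is the highest for Extl3, and 106 genes had one above 0.95.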

How the data were processed

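Probe intensities before normalization, with a detection p-value beside each, were deposited for the 6 arrays, per the file headers. GenomeStudio is named, with no version, in the submitters' processing notes. A second deposited table holds log2 values whose columns share a median of 6.94 and the rank order of the raw signals (how they were made is not given in the sources used here), and it served only as an alternative.

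Intensities were processed with neqc in limma 3.58.1 under R 4.3.3, that is, background correction from detection p-values, offset 16, quantile normalization and log2. Probes with detection p under 0.05 on at least 3 arrays were kept, 11115 in all. The groups were set against each other with lmFit and eBayes and Benjamini-Hochberg adjustment over these probes. A gene is counted by its kept probe with the highest mean. Symbols came from the platform annotation (1 symbol for 23978 probes, none for 1719). Errors are SE of log2 changes or SD between arrays. The number of arrays limits precision, and an exact two-sided permutation test of 3 against 3 cannot go below 0.1.

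The genes and lists were chosen with earlier results of these data known, by gene name and with no threshold on values. Named are all 10 enzymes and, per list, up to 4 called genes, or, for lists without a call, the 2 that moved most. For the enzyme with the smallest p, the 3 most correlated genes are named, passing over clone names. The procedure was tested on simulated signals with the same spread in both groups. In the data the VPA cultures varied more than the controls in 78.7% of all genes, so that test does not cover this difference. The 17 alternatives covered background, offset, scaling, the deposited values, filters, variance model, array weights, a replicate block, left-out arrays and averaged probes.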

Additional observations from a re-analysis of the deposited data

How the results depend on the processing

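The count of 0 enzymes called in either direction held under 16 of 17 alternatives. With array weights 2 were higher, Ext1 (adjusted p = 0.0212) and Hs6st1 (0.0108). Adjusted p over the alternatives ran from 0.0212 to 0.861 for Ext1 and from 0.0108 to 0.988 for Hs6st1. The count of 0 at an unadjusted p under 0.05 did not hold in all of them. By limma that p was 0.0290 for Extl3 in the deposited log2 values and 0.00501 for Hs6st1 without VPA replicate 1. Array weights also called 4 further pathway enzymes higher and 3 lower, and 1365 and 1128 genes of all, against 272 and 25. The estimation of those weights stopped before it converged, and the cause was not tested. Leaving VPA replicate 1 out of the normalization and the fit gave 1 further enzyme lower (Sgsh) and 104 genes of all. Leaving out 1 array at a time gave Ext2 -0.26 to 0.043, Papss1 -0.075 to 0.38, 0 to 1 further enzymes lower, 2 to 5 core proteins higher, and 54 to 494 genes higher and 5 to 127 lower. Median scaling called 111 genes higher and moved the median of all genes to -0.29. It gave Hs6st1 -0.18, Papss1 -0.11 and Ids -0.0037, and relative to that median Hs6st1 was at 0.11. Ext2 was at 0.070 with array weights, 0.043 without VPA replicate 1 and 0.043 with that array out of the normalization too, where Papss1 was at -0.0044, -0.075 and -0.074. Whether the replicate number pairs the cultures is not known, since the labels tie no numbered control to a VPA culture. Deviations of same-numbered arrays correlated at 0.13, -0.06 and 0.05. With 3 arrays per group and VPA replicate 1 apart, these values cannot decide it. With the replicate number as a block 178 genes were higher and 13 lower, 0 of the enzymes. Hpse and Chst14 did not pass the stricter detection filter and have no value there. Near background, as for Hpse, signal limits what can be told.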
